A study of Homo sapiens with 46 samples.

Results

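ATP6 silencing was compared with its control in 8 RNA-seq libraries of a human cell line, 4 per group, out of 46 libraries in the series. The members are the 4 libraries of the ATP6 silencing treatment and the 4 of the pCox4 control, taken by their sample labels, and all genes measured in them. HEK293T is a line of human embryonic kidney origin, and the study used a HEK293-Flp-In T-Rex derivative, wild type by its label. All cells grew for 48 hours in flasks and were then treated for 48 hours in fresh medium with Endo-Porter, a delivery reagent. The treated cells received the ATP6 chimera at 2 µM, in which an antisense morpholino, whose backbone carries no charge, is joined to pCox4, a yeast presequence for import into mitochondria. The control cells received pCox4 in the buffer of the click reaction without a morpholino, so that the control holds the peptide and the delivery reagent but no antisense sequence. Replicates 1 and 2 of each group formed batch 1 and replicates 3 and 4 formed batch 2, prepared on separate days with separate reagent batches. The remaining 38 libraries come from 10 treatments with chimeras against other mtDNA-encoded genes, and they served for the spread between replicates and for the question of whether a change was particular to ATP6 silencing.

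ATP6 is the subunit of mitochondrial ATP synthase (complex V) that, with the ring of c subunits, forms the path of protons through the inner membrane. It is encoded by mtDNA on one mRNA together with ATP8, a small membrane subunit, and their reading frames overlap. The other subunits of the enzyme are encoded in the nucleus and imported, and the mitochondrial ribosome that translates the ATP6 mRNA is built on the 12S and 16S rRNAs, which are transcribed from mtDNA as well.

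The chimera is named for bases 10 before the ATP6 start codon to 15 within it. Counted from the A of the start codon, that site of 25 bases lies at chrM:8517-8541 (plus strand, GRCh38), and it is given here because it is where the antisense oligomer meets its mRNA. It was read from the GENCODE 29 transcripts and begins inside the coding sequence of MT-ATP8, since the 2 frames share 46 bases (chrM:8527-8572). The capitals mark the ATP6 start codon.
ATP6 target site: gagaaccaaaATGaacgaaaatctg
The longest run of this site found in the 12S rRNA was 7 bases, as in the 16S rRNA, and it was 8 bases in the transcripts of TXNIP, the other transcript that was altered.

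Total counts per library ranged from 21024598 to 25873060 after ATP6 silencing and from 19944731 to 22664329 in the control. No pair of replicates agreed within sampling noise (chi-square per degree of freedom 3.47 to 22.5), so none looked like one library deposited again. ATP6 replicate 2 stood apart: among 10413 genes with a mean of at least 10 CPM (counts per 1e6 counts of a library, after TMM scaling of library sizes), 8.63% lay more than 20% from the mean control of their batch in this library, against 1.42%, 1.97% and 5.82% in replicates 1, 3 and 4. Counts over gene lists are therefore also given without it, where the share over all genes was 2.35% higher and 2.18% lower at an unadjusted p under 0.05. Leaving out ATP6 replicate 1, 3 or 4 instead gave 5.96%, 7.06% and 4.48% higher and 4.22%, 5.65% and 3.29% lower. All 10 markers of HEK293 cells were measured, with a summed level of 1544 to 1836 CPM after ATP6 silencing and 1548 to 1746 CPM in the control. Of the other markers, 5 of 6 for leukocytes and 4 of 6 for cardiomyocytes were too low to be tested. By contrast, 5 of 6 fibroblast markers were tested. The fibroblast markers summed to 29.8714 to 33.8555 CPM after ATP6 silencing and 28.4277 to 33.9976 CPM in the control. In bulk RNA, fewer cells with a transcript and less of it per cell cannot be told apart.

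ATP6 silencing altered 2 transcripts at an adjusted p under 0.05 by edgeR (0.00987% of the 20272 tested), 1 higher and 1 lower (0.00493% each). MT-RNR1, the 12S rRNA of the small mitochondrial ribosomal subunit, rose, and TXNIP, a binding partner and inhibitor of thioredoxin that also limits glucose uptake, fell. The targeted mRNA itself had a ratio of means of 0.871 and did not pass the test. In that edgeR fit, the nuclear genes of ATP synthase gave no called transcript, and none of the lists examined did, apart from those that hold these 2 transcripts. DESeq2 with the batch in the design called 22 transcripts, among them 3 of the integrated stress response and 1 each of glycolysis, the lysosome and ribosome biogenesis, and none of the nuclear ATP synthase genes.

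MT-RNR1 (ENSG00000211459, chrM:648-1601) was measured at 985, 1028, 877 and 859 CPM in ATP6 replicates 1 to 4. In the control replicates it was measured at 658, 664, 680.0 and 607 CPM. The lowest ATP6 library lay above the highest control library, and each ATP6 library stood at 134% to 156% of the mean control of its batch. The log2 fold change was 0.52 ± 0.063 (SE; edgeR's quasi-likelihood test, adjusted p = 8.71e-07). It was called without any single library of either group, with log2 fold changes of 0.49 to 0.57. MT-RNR1 had the smallest p of the comparison, and the ATP6 libraries were higher in both batches, with log2 differences of 0.61 in batch 1 and 0.43 in batch 2.

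The 16S rRNA of the large subunit, MT-RNR2 (chrM:1671-3229), is transcribed from the same strand just downstream. It lay at 4369, 4235, 4449 and 4332 CPM after ATP6 silencing and at 3503, 3503, 4096 and 3726 CPM in the control. Here too the groups did not overlap, as for 1.51% of all transcripts in this direction, but the log2 fold change of 0.23 ± 0.063 did not pass the test (adjusted p = 0.207), although it did in a fit of the 8 libraries only (adjusted p = 0.0387) and without the filter on low counts. Within each library, the ratio of 12S to 16S counts was 0.225, 0.243, 0.197 and 0.198 after ATP6 silencing and 0.188, 0.190, 0.166 and 0.163 in the control. The 2 rRNAs together took 0.528% ± 0.0108 of all counts after ATP6 silencing and 0.440% ± 0.0321 in the control (SD, n = 4 each; exact permutation test within batches, two-sided, p = 0.0556, the smallest that 36 arrangements allow). Libraries were made from poly(A)-selected RNA, so an rRNA count is a count of the molecules that the selection kept, and their amount and their retention cannot be told apart.

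**Figure D1:**
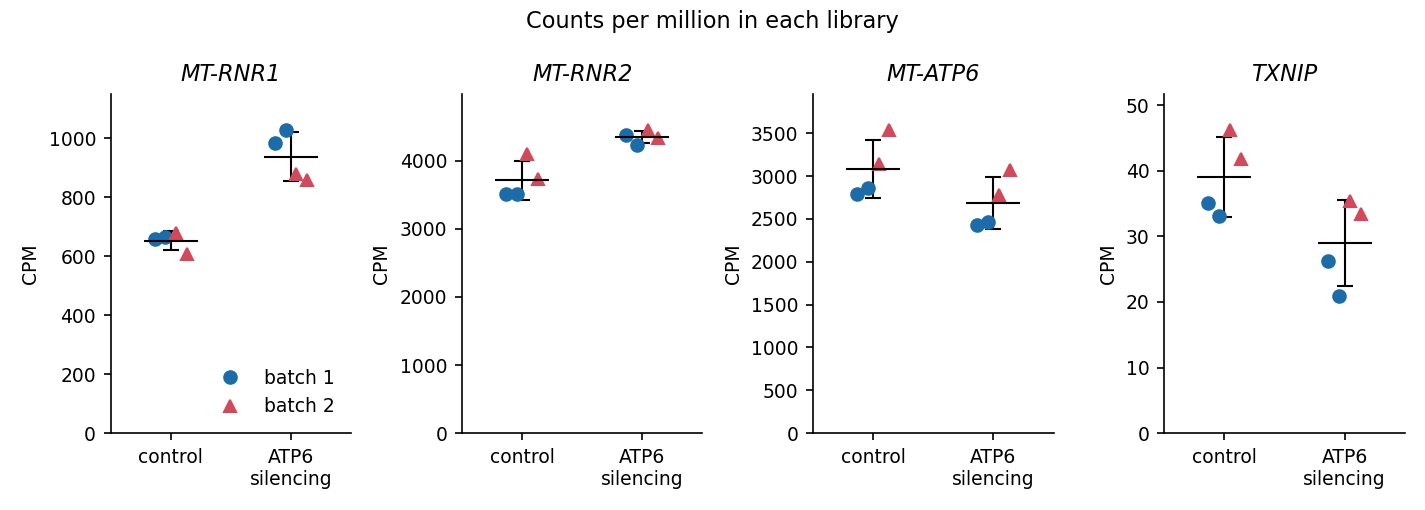
Level in CPM (y axis, linear from 0) of MT-RNR1, MT-RNR2, MT-ATP6 and TXNIP in the 4 control and 4 ATP6 silencing libraries; circles are batch 1, triangles batch 2, and the black line and bar are the mean and SD. The 4 ATP6 libraries hold 859 to 1028 CPM of MT-RNR1 against 607 to 680.0 CPM in the control, while the groups overlap for MT-ATP6 and TXNIP until each batch is read on its own.

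The targeted mRNA was measured on both of its reading frames. MT-ATP6 (chrM:8527-9207) lay at 2429.6, 2462, 2783 and 3067 CPM after ATP6 silencing and at 2792, 2866, 3138 and 3540 CPM in the control. Each ATP6 library was below both control libraries of its batch, at 83.4% to 91.9% of their mean, although the groups overlapped across batches. The log2 fold change was -0.20 ± 0.055 and did not pass the test over all genes (adjusted p = 0.207). The log2 difference was -0.21 in batch 1 and -0.19 in batch 2. MT-ATP8 (chrM:8366-8572), counted on the short frame upstream, lay at 64.4, 91.6, 109 and 102 CPM after ATP6 silencing and at 84.4, 111, 90.6 and 131 CPM in the control, and these groups overlapped (log2 fold change -0.19 ± 0.174, adjusted p = 0.775). The program that assigned reads and its use of strand are not given in the sources used here, so that reads in the frames' overlap may have been counted on either gene. MTATP6P1, a nuclear copy of the ATP6 gene on chromosome 1 that can share its reads, held 147 to 270 CPM after ATP6 silencing and 184 to 232 CPM in the control.

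None of the other mtDNA-encoded mRNAs passed the test. Of the 13 mRNAs, 10 had a log2 fold change below 0 and 3 above 0, with a median of -0.04 against 0.003 over all genes. MT-CO3, the COX3 mRNA that adjoins MT-ATP6 in the primary transcript, had the next lowest value after MT-ATP6 and MT-ATP8 (-0.13 ± 0.064, adjusted p = 0.545). MT-ND3 had the highest, at 0.10 ± 0.126. MT-CO1, the most counted of them, differed by -0.01 ± 0.068. The ratio of MT-ATP6 to MT-CO3 was 0.555 ± 0.0310 after ATP6 silencing and 0.583 ± 0.0405 in the control (SD, n = 4 each; exact permutation test within batches, two-sided, p = 0.389). Genes of mtDNA as a whole took 4.46% ± 0.278 of the counts after ATP6 silencing and 4.56% ± 0.414 in the control (SD, n = 4 each; exact permutation test within batches, two-sided, p = 0.333).

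**Figure D2:**
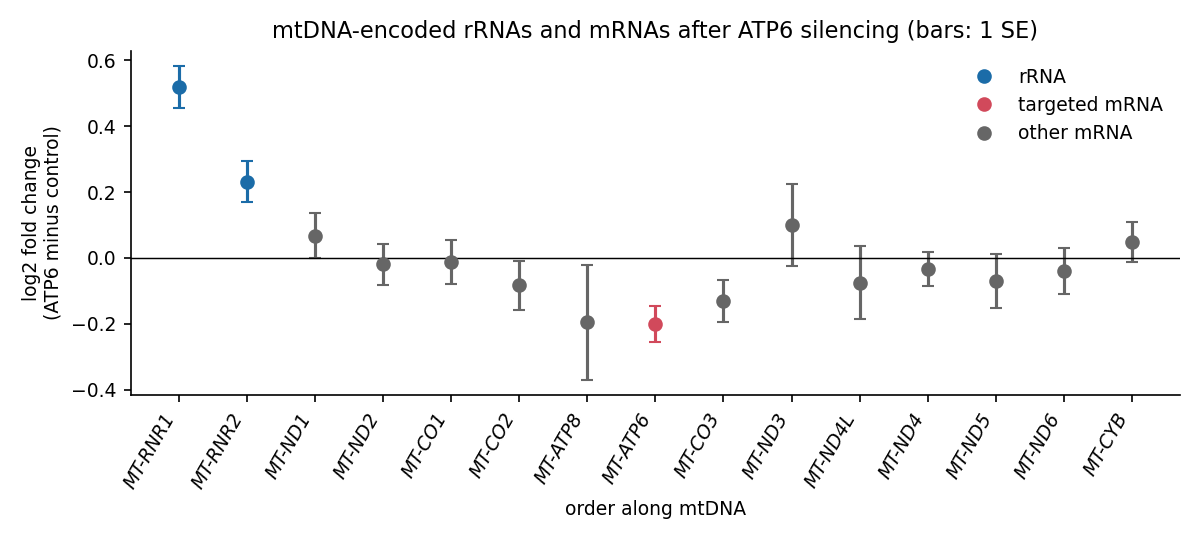
Log2 fold change of ATP6 silencing against control (y axis; bars are 1 SE) for the 2 rRNAs and 13 mRNAs of mtDNA, in their order along mtDNA (x axis). MT-RNR1 stands at 0.52, MT-RNR2 at 0.23 and the targeted MT-ATP6 at -0.20, and the other mRNAs lie between -0.19 and 0.10.

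TXNIP (ENSG00000265972, chr1:145992435-145996600, minus strand) was measured at 26.3, 21.0, 35.4 and 33.3 CPM after ATP6 silencing. The control libraries held 35.1, 33.1, 46.2 and 41.9 CPM. Batch 2 was higher than batch 1 in both groups, and within each batch both ATP6 libraries lay below both control libraries, at 61.5% to 80.3% of their mean. The log2 fold change was -0.44 ± 0.077 (adjusted p = 0.0064). The call was lost without ATP6 replicate 2, without control replicate 1 and without control replicate 3, with log2 fold changes from -0.48 to -0.37 across the 8 libraries left out in turn.

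TXNIP is known as a target of MondoA (MLXIP) and ChREBP (MLXIPL), glucose-sensing factors that pair with MLX and bind carbohydrate response elements, which are paired E-box-like motifs. A stretch of its promoter is shown because TXNIP was the altered nuclear transcript. It holds the motif CACGNG followed, after a gap of 5 bases, by CACGNG again, a pairing that was searched on both strands of 35116 RefSeq promoter windows (GRCh38.p14, from 250 bases before to 50 after a start) and found in 0.057% of them. The capitals mark the match, which starts 88 bases before the RefSeq start site, and the stretch is chr1:145996611-145996707, minus strand.
TXNIP promoter: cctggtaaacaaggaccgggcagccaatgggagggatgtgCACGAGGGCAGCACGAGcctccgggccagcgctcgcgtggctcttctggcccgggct
A match is a description of letters and was not tested as a binding site.

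The other genes of that axis were measured too. ARRDC4, an arrestin relative of TXNIP with the same regulators, held 51.0, 48.6, 56.3 and 53.1 CPM after ATP6 silencing against 59.2, 62.8, 65.0 and 68.7 CPM in the control. Its groups did not overlap, as for 1.49% of all transcripts in this direction, and its log2 fold change of -0.29 ± 0.063 did not pass edgeR's test (adjusted p = 0.111). It passed by DESeq2 (adjusted p = 0.0295 with the batch in the design) and by edgeR in a fit of the 8 libraries only (adjusted p = 0.0387). On the strand of the gene, the ARRDC4 promoter window did not hold the paired motif found for TXNIP. It held the single motif CACGTG, 210 bases before the RefSeq start, which 7.26% of the promoter windows hold on either strand. That match was not tested as a binding site. The regulators MLXIP, MLXIPL and MLX had log2 fold changes of -0.01, 0.03 and 0.03, and the further targets KLF10 and HBP1 had 0.02 and -0.07. Over the 7 genes of the list, 1 passed edgeR's test, lower, against 2 by DESeq2, and the median was -0.01. This list was drawn up with earlier results on TXNIP and ARRDC4 in these libraries known.

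Beyond the transcripts that passed the test, the unadjusted p was under 0.05 for 1841 of 20272 in all (9.08%), of which 1092 were higher (5.39%) and 749 lower (3.69%). Without ATP6 replicate 2 these became 477 higher and 442 lower, and no other library changed the total by as much. Within both batches, both ATP6 libraries lay beyond both control libraries for 1868 transcripts (9.21%), 1012 higher (4.99%) and 856 lower (4.22%). Among the 10413 genes with a mean of at least 10 CPM, 800 were higher and 439 lower at an unadjusted p under 0.05, 11.9% together.

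Higher protein-coding genes were ranked by p if of at least 5 CPM with every ATP6 library above its batch's mean control. CD63, a tetraspanin of late endosomes and lysosomes, was among the 10 of them with the smallest p, with 219, 273, 209 and 218 CPM after ATP6 silencing and 198, 214, 174 and 166 CPM in the control (log2 fold change 0.29 ± 0.064, adjusted p = 0.111). SMPD2, a neutral sphingomyelinase, held 22.7, 26.2, 21.5 and 23.3 CPM against 19.2, 17.8, 18.3 and 17.1 CPM (0.37 ± 0.082, adjusted p = 0.111). PROCR, the endothelial protein C receptor, held 25.3 to 31.2 CPM against 20.4 to 23.3 CPM (0.32 ± 0.072, adjusted p = 0.111). In CD63, SMPD2 and PROCR the highest library was ATP6 replicate 2, and without it their log2 fold changes were 0.21, 0.32 and 0.28. DESeq2 with the batch in the design gave all 3 an adjusted p of 0.0295. CD63 also passed edgeR's test in a fit of the 8 libraries only (adjusted p = 0.0387). The 10 also held enzymes of mitochondrial fatty acid and propionate breakdown, ACADVL (0.25 ± 0.059) and PCCB (0.21 ± 0.049), both with adjusted p = 0.153. The remaining ones were SIL1, a co-chaperone of the endoplasmic reticulum, RRP1, a ribosome biogenesis factor, EML2, a microtubule-associated protein, and SFN, the 14-3-3 sigma protein, with log2 fold changes of 0.24 to 0.44 and adjusted p of 0.149 to 0.157 by edgeR. These and both enzymes had adjusted p under the threshold by DESeq2, at 0.0378 for PCCB and 0.0495 for the others.

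U2AF1, a splicing factor that reads the 3′ splice site, had the highest fold among these, at 13.3, 16.0, 18.4 and 22.5 CPM against 4.88, 5.16, 8.02 and 5.54 CPM (log2 fold change 1.57 ± 0.352, adjusted p = 0.111). U2AF1 did pass edgeR's test in a fit of the 8 libraries only (adjusted p = 4.19e-09), without the filter on low counts (adjusted p = 6.22e-38) and in batch 1 alone (adjusted p = 0.0197). The near-identical copy of U2AF1, U2AF1L5, also on chromosome 21, held 22.3, 20.6, 21.3 and 45.2 CPM against 31.7, 24.9, 27.8 and 66.1 CPM. The 2 summed to 35.7, 36.6, 39.6 and 67.8 CPM after ATP6 silencing and to 36.6, 30.01, 35.8 and 71.7 CPM in the control, and these groups overlapped. A difference of U2AF1 and a different division of reads between the copies cannot be told apart.

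Lower protein-coding genes were ranked by p if of at least 5 CPM with every ATP6 library below its batch's mean control. After TXNIP and ARRDC4 came MYBL1, a transcription factor (-0.28 ± 0.069), and NSUN6, an RNA methyltransferase (-0.27 ± 0.068), both with adjusted p = 0.157. EYA3, PKD2, MT-ATP6, MARC1 and ZKSCAN8 had log2 fold changes of -0.27 to -0.17 and adjusted p of 0.198 to 0.271. None of these passed edgeR's test with the filter on low counts, and NSUN6 passed by DESeq2 on batch-corrected counts (adjusted p = 0.0493). DESeq2 with the batch in the design called 4 transcripts lower: TXNIP, ARRDC4, KRT222 (-0.82, adjusted p = 0.0495) and SLC4A8 (-0.55, adjusted p = 0.0495). SH3YL1 (-0.48) passed edgeR's test without ATP6 replicate 1 (adjusted p = 0.0257). KRT222, SLC4A8 and SH3YL1 were named after their values were seen.

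**Figure D3:**
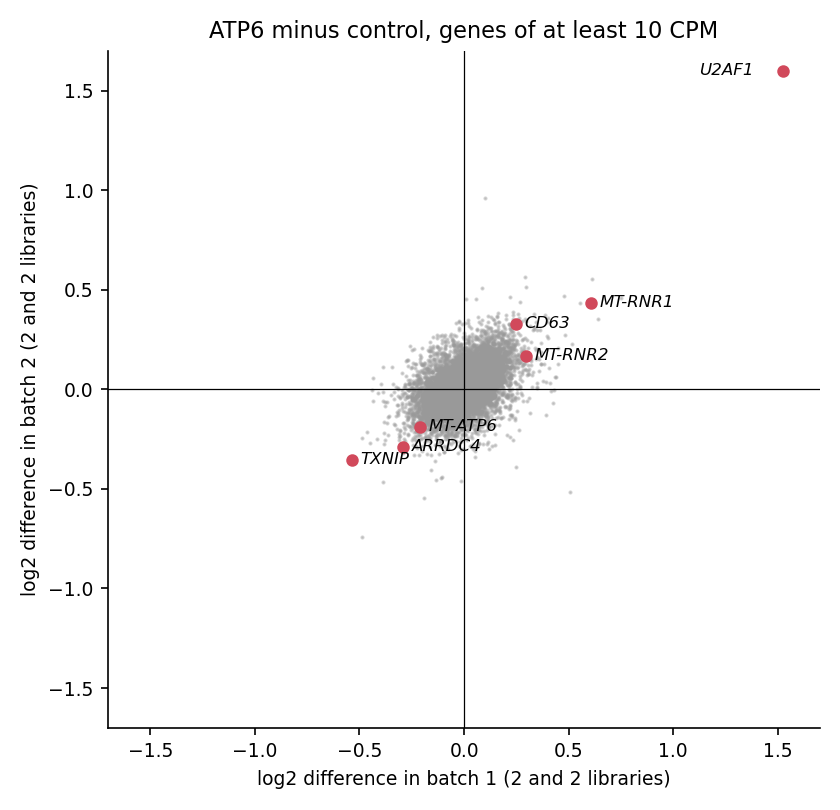
Log2 difference between ATP6 silencing and control in batch 1 (x axis) and batch 2 (y axis), each from 2 and 2 libraries, for the 10413 genes with a mean of at least 10 CPM (grey points). MT-RNR1 (0.61 and 0.43) and TXNIP (-0.54 and -0.36) lie at the edge of the cloud along its diagonal, and U2AF1, which has a near-identical copy, lies outside it.

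The 2 batches hold no library in common. Across the 10413 genes with at least 10 CPM, the sign of the difference was the same in both batches for 68.0%, and Pearson's r was 0.493 (Spearman's rho 0.486). Across all 20272 genes the sign was shared by 60.9% (r = 0.077, rho = 0.184). These are descriptions across genes, which are not independent replicates and share the libraries of each batch. No gene passed the test of the interaction of the ATP6 effect with batch (edgeR, 0 genes called and 497 at an unadjusted p under 0.05, 2.45%). Each batch holds 2 and 2 libraries, so this does not show that the effects were alike.

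The nuclear side of ATP synthase was measured on 18 subunit genes and 7 assembly factors, with no transcript called. Of the subunits, 15 had a log2 fold change above 0, with a median of 0.05, and 3 were higher at an unadjusted p under 0.05, which is read against 5.39% of all genes. They were ATP5MC1 (0.18 ± 0.064, adjusted p = 0.398), which encodes the c subunit of the ring that ATP6 faces, ATP5IF1 (0.17 ± 0.080, adjusted p = 0.529), the inhibitor of ATP hydrolysis, and ATP5MG (0.19 ± 0.089, adjusted p = 0.535), subunit g of the membrane part. ATP5MC1 held 97.7, 100.9, 83.1 and 102 CPM after ATP6 silencing and 87.4, 82.3, 89.3 and 79.0 CPM in the control, and the groups overlapped, since ATP6 replicate 3 lay below control replicates 1 and 3. The catalytic head subunits ATP5F1A and ATP5F1B differed by 0.05 ± 0.039 and 0.06 ± 0.042. The c subunit genes ATP5MC2 and ATP5MC3 differed by -0.04 ± 0.081 and 0.12 ± 0.065. The peripheral stalk genes ATP5PB and ATP5PO, near -0.01 and -0.02, had the lowest values next to ATP5MC2. Without ATP6 replicate 2 the median of the subunits was 0.02 and 2 were higher at an unadjusted p under 0.05, against 2.35% of all genes. Of the assembly factors, among them TMEM70, ATPAF1 and ATPAF2, none reached an unadjusted p under 0.05, and their median was 0.04.

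Nuclear genes of other respiratory complexes had values of the same size. Their counts are read against 5.39% higher and 3.69% lower over all genes, and against 2.35% and 2.18% without ATP6 replicate 2. Of 37 complex I subunit genes, 32 were above 0 and 8 were higher at an unadjusted p under 0.05 (median 0.11), none called, with NDUFB9 at 0.22 ± 0.061 (adjusted p = 0.217) and NDUFS6 at 0.35 ± 0.109 (adjusted p = 0.352). Without ATP6 replicate 2 these 8 became 3 and the median 0.06. Of 25 genes of complexes II to IV, 4 were higher, led by COX4I1 (0.19 ± 0.055, adjusted p = 0.239), and 1 without that library. Of 83 mitochondrial ribosomal protein genes, whose products assemble on the 2 rRNAs, 9 were higher and none lower (median 0.05), and 2 without that library. Of 35 factors of mtDNA transcription, RNA processing and translation, 2 were higher and none lower (median 0.01), led by TUFM, the mitochondrial elongation factor (0.13 ± 0.052, adjusted p = 0.444), and none of either kind without that library. Those 2 are 5.71% of the list, near the share over all genes. In each of these lists no transcript was called by DESeq2, or by edgeR in the fit of all 46 libraries with the filter on low counts. NDUFS6 passed edgeR's test without that filter (adjusted p = 7.93e-06).

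Stress and metabolic lists held no transcript called by edgeR in the fit of all 46 libraries with the filter on low counts. INSIG1 and LONP1, named below, were each called under 1 of 12 other settings. SRXN1, the highest of the NRF2 targets (0.42), and HSPA1A, the highest heat shock gene (0.22), were also each called under 1 of the 12. In the integrated stress response, ATF4 drives amino acid supply and tRNA charging. Of the 38 genes of that list, 13 were higher at an unadjusted p under 0.05 and none lower, against 5.39% and 3.69% of all genes (median 0.13). STC2, a secreted glycoprotein (0.24 ± 0.059, adjusted p = 0.157), and PCK2, mitochondrial phosphoenolpyruvate carboxykinase (0.25 ± 0.082, adjusted p = 0.384), were among them, and the tRNA synthetases SARS (0.18 ± 0.044) and AARS (0.20 ± 0.050), named after their values were seen, had adjusted p = 0.157. By DESeq2 with the batch in the design STC2, SARS and AARS passed the test, each with adjusted p = 0.0495, as did PFKP of glycolysis. Without ATP6 replicate 2, 8 of the 38 were higher, against 2.35% of all genes, and the median was 0.10. In glycolysis 9 of 25 genes were higher, led by PFKP, the platelet phosphofructokinase (0.18 ± 0.045, adjusted p = 0.157), and ENO2, an enolase (0.23 ± 0.059, adjusted p = 0.183), and 4 without that library.

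The proteasome list had 12 of 31 genes higher and 1 lower (median 0.10), with PSMD4, a ubiquitin receptor, at 0.18 ± 0.049 (adjusted p = 0.228), and 3 higher without ATP6 replicate 2. Cholesterol synthesis and its regulators had 7 of 25 genes lower and 1 higher at an unadjusted p under 0.05, among them INSIG1, the sterol-sensing retention protein (-0.21 ± 0.068, adjusted p = 0.373), and 2 lower and 0 higher without that library. The median of this list was -0.008, and 10 of the 25 were above 0. In batch 1 alone 5 were lower, against 2.8% of all genes, and in batch 2 alone 0, against 2.24% of all genes. For comparison, cytosolic ribosomal protein genes had 6 of 79 higher (7.6%, median 0.07), p53 targets 2 of 25 higher (8%) and 1 lower (4%), and interferon response genes 1 of 23 in each direction (4.35%). Over all genes the shares were 5.39% higher and 3.69% lower. Without ATP6 replicate 2 these became 1 of 79 (median 0.02), 0 higher and 1 lower, and 2 higher and 1 lower, against 2.35% higher and 2.18% lower over all genes. Leaving out ATP6 replicate 3 instead, 19 of 79 cytosolic ribosomal protein genes were higher, against 7.06% of all genes. Genes of the endoplasmic reticulum stress response were higher in 6 of 18 and lysosomal genes in 7 of 24, with none lower, and in 1 and 2 without ATP6 replicate 2. Targets of NRF2, the factor of the oxidative stress response, were higher in 4 of 20, and in 1 without that library. Mitochondrial chaperones and proteases were higher in 5 of 24, among them LONP1, the matrix protease (log2 fold change 0.21), and in 2 without that library. Of 15 genes chosen because they were altered in other treatments of the series, 8 were higher and 3 lower, and 7 and 3 without that library. TXNIP was the one called by edgeR, and DESeq2 called 5 of the 15. That list was chosen on these libraries against the same controls, and its direction is not independent evidence.

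**Figure D4:**
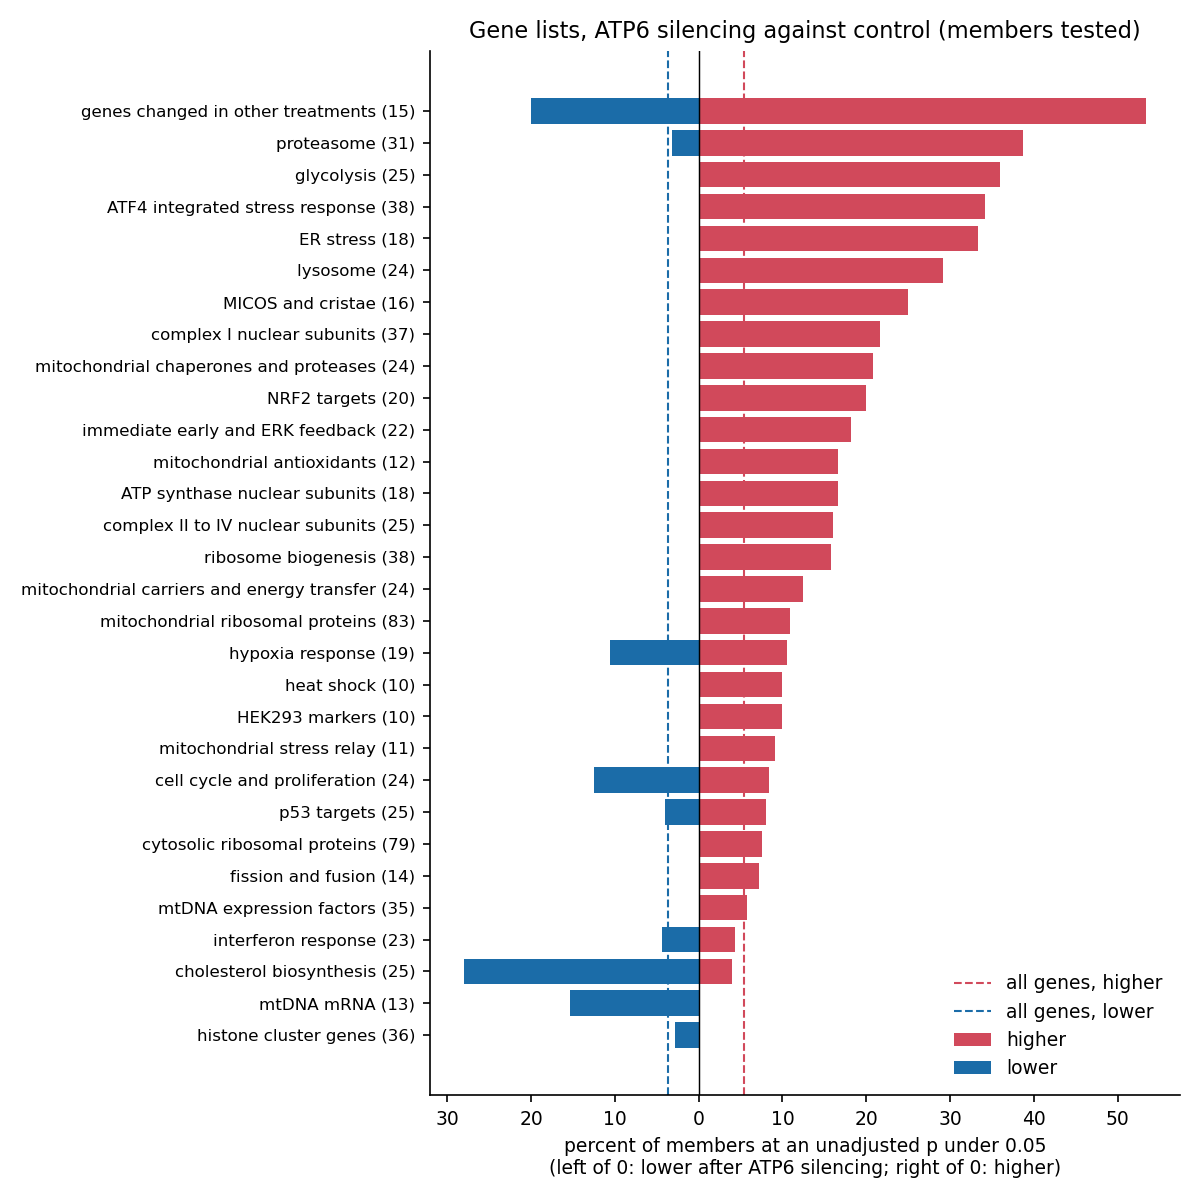
Percent of each list's members at an unadjusted p under 0.05 after ATP6 silencing, higher to the right of 0 and lower to the left, with the number of members tested in brackets and dashed lines at the shares over all genes (5.39% higher, 3.69% lower). Among the 10413 genes with at least 10 CPM the share was larger, 11.9% in both directions together against 9.08% over all genes. The proteasome (38.7% higher), glycolysis (36%) and integrated stress response (34.2%) lists exceed the share over all genes. In cholesterol biosynthesis 28% of members are lower, while the median log2 fold change of the list is -0.008. The topmost list was chosen on the treatments of this series against the same control libraries and so is no separate evidence.

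ATP6 silencing was then set against the other 10 treatments, to learn which differences were particular to it. Against their mean, 2 transcripts differed at an adjusted p under 0.05 (0.00987% of those tested), 1 in each direction (0.00493% each). At an unadjusted p under 0.05 there were 867 (4.28%), 497 higher (2.45%) and 370 lower (1.83%). With the replicate number as a block in place of the batch, 5 transcripts were called. MT-RNR1 was higher than in the other treatments by 0.32 ± 0.045 (log2, adjusted p = 4.42e-05). SLC16A1-AS1, an antisense RNA at the locus of the lactate transporter SLC16A1, was lower, with a log2 difference of -0.42 ± 0.081 (adjusted p = 0.0341). TXNIP, by contrast, differed from the mean of the other treatments by 0.12 ± 0.058 (adjusted p = 0.998), and MT-ATP6 by -0.20 ± 0.041 (adjusted p = 0.0591). The targeted MT-ATP6 was among the 5 called with the replicate block (adjusted p = 0.0225), and it was called by DESeq2 as well (adjusted p = 0.012 with the batch in the design). Its mean after ATP6 silencing, 2685 ± 300 CPM (SD), was not the lowest but 10th of the 12 conditions. MT-ATP6 was lower after ATP8 silencing (2607 ± 267 CPM) and after COX3 silencing (2459 ± 335 CPM).

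SLC16A1-AS1 held 12.4, 12.1, 16.6 and 13.6 CPM after ATP6 silencing and 18.1, 15.8, 17.2 and 17.8 CPM in the control. Against the control alone, its log2 fold change of -0.33 ± 0.107 did not pass the test (adjusted p = 0.357). Its mean of 13.7 ± 2.05 CPM was the lowest of the 12 conditions, the next being COX2 silencing at 17.1 ± 2.46 CPM. Replicate 3 of the ATP6 treatment lay within the range of the control libraries, and against the other treatments the call held in 1 of the 4 fits that left out 1 ATP6 library each. Reads from an antisense RNA and its partner cannot be told apart where counting ignores strand, and the use of strand is not given in the sources used here.

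The level of MT-RNR1 ordered the conditions differently from that of MT-RNR2. It was highest after ATP8 silencing (1102 ± 153 CPM), followed by ATP6 silencing (937 ± 82.3 CPM), COX2 silencing (877 ± 87.2 CPM, n = 3) and COX3 silencing (818 ± 27.4 CPM), with the control at 652 ± 31.7 CPM and ND2 silencing lowest (541 ± 25.3 CPM, n = 3; SD, n = 4 elsewhere). Neighbours in this order overlapped in their libraries from ATP8 to COX2, whereas the lowest ATP6 library lay above every library of the other conditions except the highest of ND5 silencing, at 861 CPM. For MT-RNR2 the ATP6 treatment was 5th of 12, at 4346 ± 89.1 CPM, below COX2, ATP8, COX1 and COX3 silencing. For TXNIP the control was highest at 39.1 ± 6.06 CPM and the ATP6 treatment was 5th of 12, within the range of 23.0 to 30.1 CPM spanned by the means of the 11 silencing treatments, all of which share the same control libraries.

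**Figure D5:**
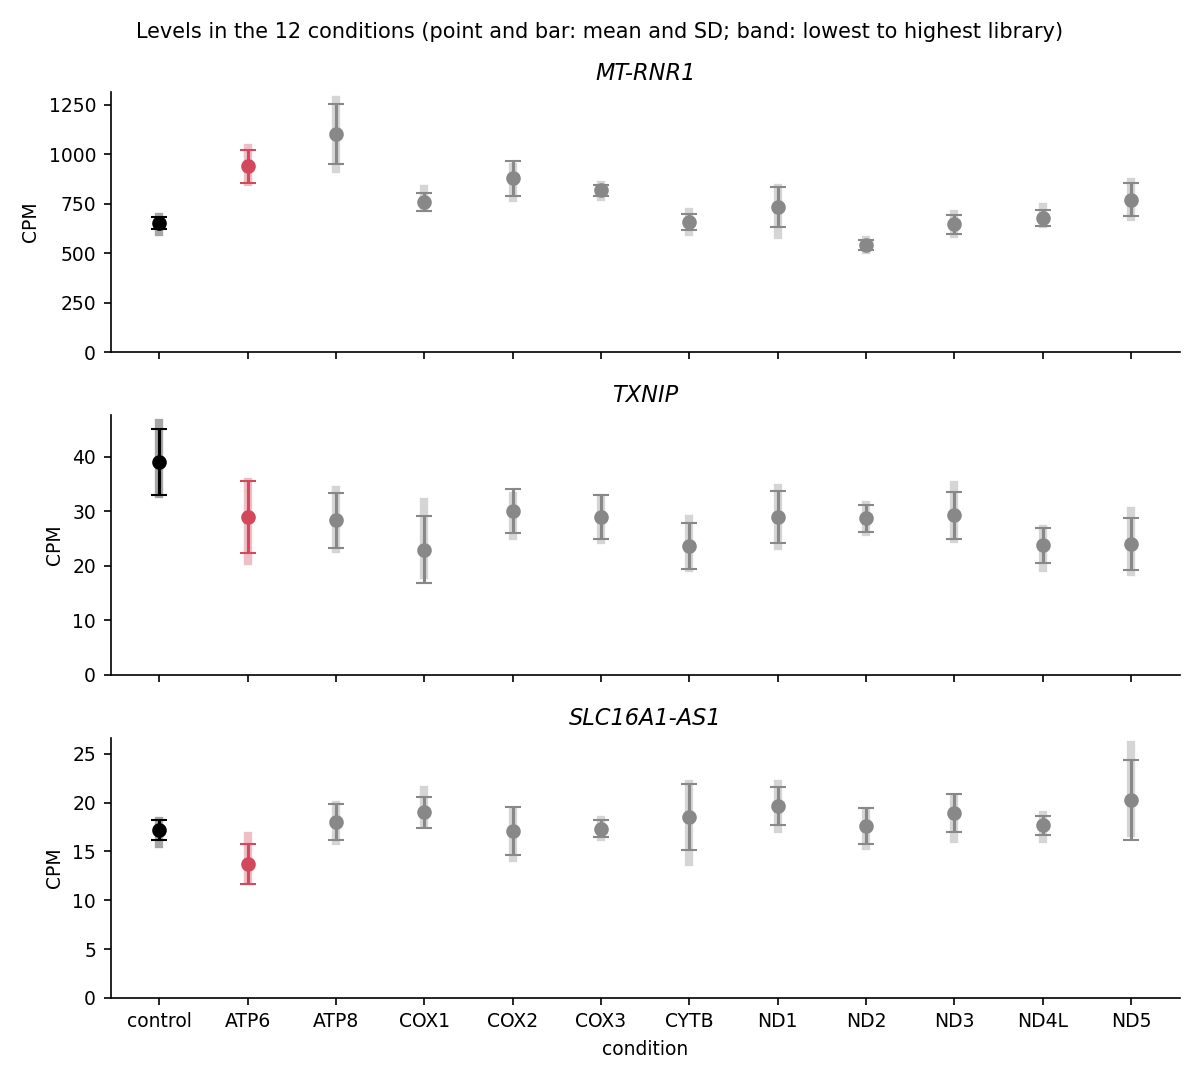
Level in CPM (y axis, linear from 0) of MT-RNR1, TXNIP and SLC16A1-AS1 in the 12 conditions (x axis); points and bars are means and SD, and bands run from the lowest to the highest library. ATP6 silencing (red) has the next highest MT-RNR1 after ATP8 silencing, a TXNIP level among those of the other treatments and the lowest SLC16A1-AS1.

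The ATP8 chimera targets the same mRNA, so that ATP6 and ATP8 silencing were compared directly. No transcript differed at an adjusted p under 0.05 (edgeR, 0% of 20272) and none by DESeq2, and 871 did at an unadjusted p under 0.05 (4.3%), 438 higher (2.16%) and 433 lower (2.14%). MT-RNR1 differed, ATP6 minus ATP8, by a log2 difference of -0.23 ± 0.062 (adjusted p = 0.993). MT-ATP6 differed by 0.04 ± 0.055, MT-ATP8 by -0.32 ± 0.173 and TXNIP by 0.03 ± 0.078. SLC16A1-AS1 was at 18.0 ± 1.81 CPM after ATP8 silencing, a log2 difference of -0.40 ± 0.106 that did not pass the test (adjusted p = 0.993). Without the filter on low counts edgeR called 21 transcripts, among them MT-ATP8 (adjusted p = 8.02e-05), MT-RNR1 (adjusted p = 0.000677) and SLC16A1-AS1 (adjusted p = 0.0291). In an edgeR fit of the ATP6 and ATP8 libraries only, 3 were called. They included U2AF1, which has a near-identical copy (log2 difference 1.34, adjusted p = 6.67e-08). A test that finds no difference does not show that the treatments acted alike.

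Matches of the target site outside mtDNA were looked for in the transcripts of the tested genes, of which 20263 were found in GENCODE 29. Besides MT-ATP6 and MT-ATP8, 25 genes held at least 13 consecutive bases of the site, and 79 held at least 12. None of the 25 was called by edgeR, and 7 were lower and 2 higher at an unadjusted p under 0.05, against 3.69% and 5.39% of all genes, with a median log2 fold change of -0.06 against 0.003 over all genes. Without ATP6 replicate 2, 1 was lower and 1 higher, against 2.18% and 2.35% of all genes. Their median gene length was 9237 bases against 3979 bases over all genes tested, and its part in the match or in the values was not tested. The longest match, 24 bases, was in AL021068.2, a processed pseudogene on chromosome 1, which held 0.232 ± 0.0800 CPM after ATP6 silencing and 0.513 ± 0.297 CPM in the control (SD, n = 4 each), and did not pass the test (edgeR, adjusted p = 0.501).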

How the data were processed

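Poly(A)-enriched RNA of 46 libraries was sequenced on a NovaSeq X Plus (paired-end in the paper, single-end in the sample records), and the authors deposited raw counts of reads per gene for 58735 genes, without normalization. The submitters' processing notes name GRCh38.p12, R 4.3.0, DESeq2 1.40.2 and limma 3.56.2. Which aligner and counter were run, and whether strand was used, is not given in the sources used here. Gene identifiers match GENCODE 29.

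Tests were run on the counts with edgeR 4.0.16 in R 4.3.3 (TMM, quasi-likelihood F test, terms for condition and batch, all 46 libraries in one fit) over 20272 genes kept by filterByExpr with a minimum count of 10, and p-values were adjusted by Benjamini-Hochberg, with a threshold of 0.05. Contrasts were ATP6 against control, against the mean of the other 10 treatments, against ATP8, and its interaction with batch. CPM values are for TMM-scaled libraries. Single values per library were compared by an exact permutation test within batches. The procedure was tested on simulated data. Genes could be named if encoded by mtDNA as mRNA or rRNA, if called, if among the 10 higher or lower protein-coding genes with the smallest p (mean of at least 5 CPM, every ATP6 library on the same side of its batch's mean control), if highest, lowest or of smallest p in a list, or if in the ATP synthase, MondoA or other-treatment lists. Not all such genes are named, and 1 is not reported here. The members and lists were chosen with earlier results of these data known. Replicate numbers come from the labels: deviations from the group means correlated between same-numbered ATP6 and control libraries by 0.244 to 0.604, but by -0.015 and -0.094 once the batch, which the fit holds, was removed. Alternatives were no batch term, the replicate block, DESeq2 1.42.0 (batch in the design, or counts corrected by removeBatchEffect in limma 3.58.1), RLE size factors, library sizes from nuclear genes, removal of a gene length trend, no filter, a minimum count of 50, only the groups compared, each batch alone and leaving out each library. The counts over lists without single ATP6 libraries were added after seeing the data. The paper calls the 4 replicates of these groups biological. The labels give separate replicates but do not say that they were separate cultures, so p-values measure the spread between these libraries.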

Additional observations from a re-analysis of the deposited data

Results flagged for a closer look

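In 4 of 166 groups of 4 libraries examined, for genes named here and for values per library, 1 library stood apart from the other 3 by Dixon's criterion, where chance gives about 1 in 20. CD63 was at 273 CPM in ATP6 replicate 2. RRP1 was at 169 CPM in the same library. PHYH, an enzyme of phytanic acid oxidation, was at 22.3 CPM in the same library, below the other ATP6 libraries. ATP5MPL, a small subunit of ATP synthase, was at 86.6 CPM in control replicate 4. The part of library preparation in these values was not tested.

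The effect of ATP6 silencing differed from the mean effect of the other 10 treatments, by the test of that difference, for MT-RNR1 (log2 difference 0.32) and SLC16A1-AS1 (log2 difference -0.42).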

How the results depend on the processing

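Altered transcripts against the control numbered 2, and 1 without a batch term, 22 with DESeq2 and the batch in the design, 24 with DESeq2 on batch-corrected counts, 90 without a filter, 13 in a fit of the 8 libraries only and 0 in batch 2 alone, where edgeR gave 982 at an unadjusted p under 0.05. Leaving out single libraries gave 1 to 3, with TXNIP lost without ATP6 replicate 2, control replicate 1 or control replicate 3. MT-RNR1 was called under 11 of 12 other settings, not in batch 2 alone, with log2 fold changes of 0.42 to 0.61, and TXNIP under 9 of 12. Against the other 10 treatments, 2 became 0 without a batch term (468 at an unadjusted p under 0.05 by edgeR), 5 with the replicate block in place of the batch, 5 with DESeq2 in either form, 29 without a filter and 1 in batch 2 alone, and 1 to 3 when single ATP6 libraries were left out. Against ATP8 silencing, 0 became 21 without a filter and 3 in a fit of those libraries only. In the batch interaction 0 became 8 without a filter. The log2 fold change of MT-ATP6 passed the test at -0.20 without a filter (adjusted p = 0.000389) and under no other setting. The difference in mtDNA share, -0.0997 percentage points, ranged from -0.246 to 0.0318 when single libraries were left out and lay above 0 without ATP6 replicate 2, control replicate 3 or control replicate 4. The replicate block changed no other call against the control or ATP8. The causes were not tested.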
